A study of Mus musculus with 18 samples.

Results

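To learn whether uracil was accompanied by an inflammatory response in fibroblasts, 10 genes for secreted chemokines and cytokines (Cxcl1, Cxcl2, Cxcl5, Cxcl12, Ccl2, Ccl7, Il6, Lif, Csf1 and Il1rn) were followed across 18 RNA libraries. They were chosen by symbol, and each matched 1 of the 55487 gene identifiers in the count table. They were made from MEFs, the fibroblasts that grow when cells of a mouse embryo are put in culture, which were kept for 24 h in full medium with 10% FBS. Uracil, a pyrimidine base, was left out (control, 0 µM) or added at 10 µM, the lower dose, or at 30 µM. There were 6 libraries per dose, numbered 1 to 6. Strain, genotype, sex and embryo of origin are not given in the labels, nor is what a shared number stands for, so p-values measure the spread between these libraries only. Of the 10 genes, 9 had enough counts to be tested (of 13865 genes tested in all) and Cxcl2 did not.

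Chemokines are small secreted proteins that draw leukocytes along a gradient through receptors on their surface. CXCL1, CXCL2 and CXCL5 act on CXCR2 of neutrophils, CCL2 and CCL7 act on CCR2 of monocytes, and CXCL12, which stromal cells make without a stimulus, acts on CXCR4. IL-6 and LIF signal through a shared receptor chain, gp130, encoded by Il6st. CSF1 is the growth factor of macrophages, and the product of Il1rn blocks the IL-1 receptor. In fibroblasts exposed to IL-1, TNF or bacterial products, NF-κB and C/EBP factors switch on many of these genes, Cxcl1, Ccl2 and Il6 among the first.

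On GRCm39, 3 of the CXC genes lie on chromosome 5, namely Cxcl5 (chr5:90907186-90909483), Cxcl1 (chr5:91039094-91040974) and its neighbour Cxcl2 (chr5:91051730-91053797). Ccl2 (chr11:81926397-81928279) and Ccl7 (chr11:81936532-81938351) are neighbours on chromosome 11. The others are Cxcl12 (chr6:117144945-117158328), Il6 (chr5:30218112-30224979), Lif (chr11:4207557-4222514), Csf1 (chr3:107648364-107667806) and Il1rn (chr2:24226865-24241506). Values are for whole genes, all exons joined. A long non-coding RNA on the opposite strand overlaps Cxcl5, Il6 and Csf1, and because the strand setting of the counting is not given in the sources used here, reads of these pairs may not be told apart.

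The 250 bases before the start site are shown for the genes that bear the binding motif of NF-κB, the factor most tied to this response. Sequences are from RefSeq on GRCm38.p6, in which 7 of the 10 genes were matched (not Cxcl5, Ccl2 or Ccl7). Both strands were searched for the κB consensus, and 4 of the 7 genes held a match, against 3.90% of 32851 promoter windows of this length. For every motif, a gene with more than 1 listed start site counted if any of its windows matched. The shares count each window by itself. The match is in capitals.
Cxcl1 (chr5:90890995-90891244, plus strand): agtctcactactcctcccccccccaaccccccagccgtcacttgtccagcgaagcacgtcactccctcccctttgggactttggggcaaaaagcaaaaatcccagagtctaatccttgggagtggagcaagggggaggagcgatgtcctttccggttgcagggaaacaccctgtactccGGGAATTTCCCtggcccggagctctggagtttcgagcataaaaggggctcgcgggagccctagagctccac
Cxcl2 (chr5:90903649-90903898, plus strand): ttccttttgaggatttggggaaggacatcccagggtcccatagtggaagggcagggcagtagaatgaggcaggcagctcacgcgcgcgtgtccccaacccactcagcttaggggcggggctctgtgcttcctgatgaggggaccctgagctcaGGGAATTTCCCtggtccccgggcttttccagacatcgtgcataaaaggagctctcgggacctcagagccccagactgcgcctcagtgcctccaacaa
Il6 (chr5:30012864-30013113, plus strand): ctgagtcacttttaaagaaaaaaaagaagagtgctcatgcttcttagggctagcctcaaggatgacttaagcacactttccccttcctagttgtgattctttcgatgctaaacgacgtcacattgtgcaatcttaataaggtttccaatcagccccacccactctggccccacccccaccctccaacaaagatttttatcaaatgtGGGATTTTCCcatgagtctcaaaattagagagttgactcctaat
Csf1 (chr3:107760470-107760719, minus strand): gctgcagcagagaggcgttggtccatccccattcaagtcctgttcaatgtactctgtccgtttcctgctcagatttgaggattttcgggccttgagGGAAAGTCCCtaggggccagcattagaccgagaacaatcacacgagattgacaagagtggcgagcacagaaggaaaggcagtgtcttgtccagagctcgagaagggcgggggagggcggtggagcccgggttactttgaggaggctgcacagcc
In Cxcl1 and Cxcl2 the match was the same run of 11 bases, read on both strands with the matches overlapping, and it lay 71 to 61 bases before the start in Cxcl1 and 97 to 87 in Cxcl2. It lay at 44 to 35 bases in Il6 and at 154 to 145 in Csf1. The AP-1 motif (TGANTCA, 6.75% of windows) was found in 3 of the 7 genes, Il6, Lif and Il1rn. Il1rn is shown because it differed most between libraries among the 9 tested genes. Its motif was in the window of 1 of the start sites listed for the gene.
Il1rn (chr2:24336610-24336859, plus strand): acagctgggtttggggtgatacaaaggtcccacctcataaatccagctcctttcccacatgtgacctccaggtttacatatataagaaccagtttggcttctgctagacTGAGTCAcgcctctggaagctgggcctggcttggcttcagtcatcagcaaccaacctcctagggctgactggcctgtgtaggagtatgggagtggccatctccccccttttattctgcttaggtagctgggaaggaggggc
The C/EBP motif (TTGCNNCAA or TTNNGCAA, 11.1% of windows) was found in Cxcl1 and Il6, and the STAT motif (TTCNNNGAA, 7.02%) in 0 of the 7. These are letter matches and not measured binding sites.

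Depth was 3963932 to 20775298 gene counts per library. Of all reads entered in the table, 54.2% were unaligned in control number 1, 37.9% in 30 µM number 6 and 5.24% in 10 µM number 6, against 1.72% to 3.59% in the other 15 libraries. Those 3 libraries stood apart, so results are given with all 18 libraries and, where a value moved with them, also with the 15 others. Fibroblast markers (Col1a1, Col1a2, Col3a1, Vim and 6 more) were all present in every library and summed to 32098 to 38209 counts per 1000000 (CPM, with TMM-scaled library sizes) in the 15 libraries. Over all 18 libraries the sum reached 72753 CPM.

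The 10 genes spanned a wide range of levels. Per kb of exon, Cxcl5 was highest at 58.2 ± 14.4 CPM per kb (SD, n = 18), followed by Csf1 (47.3 ± 5.25), Ccl7 (44.6 ± 17.2), Cxcl12 (34.7 ± 4.94) and Ccl2 (32.9 ± 9.66). The ranges of neighbours among these 5 overlapped, and each stood above the next in only 10 to 14 of 18 libraries, so their order is not firm. A clear step followed, with Cxcl1 at 7.52 ± 2.36 CPM per kb, below Ccl2 in 18 of 18 libraries. Lif came next (3.30 ± 1.20), then Il1rn (1.04 ± 0.819) and Il6 (0.667 ± 0.210), whose ranges overlapped. Cxcl2, at 0.00636 ± 0.0124 CPM per kb, was below Il6 in 18 of 18.

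**Figure D1:**
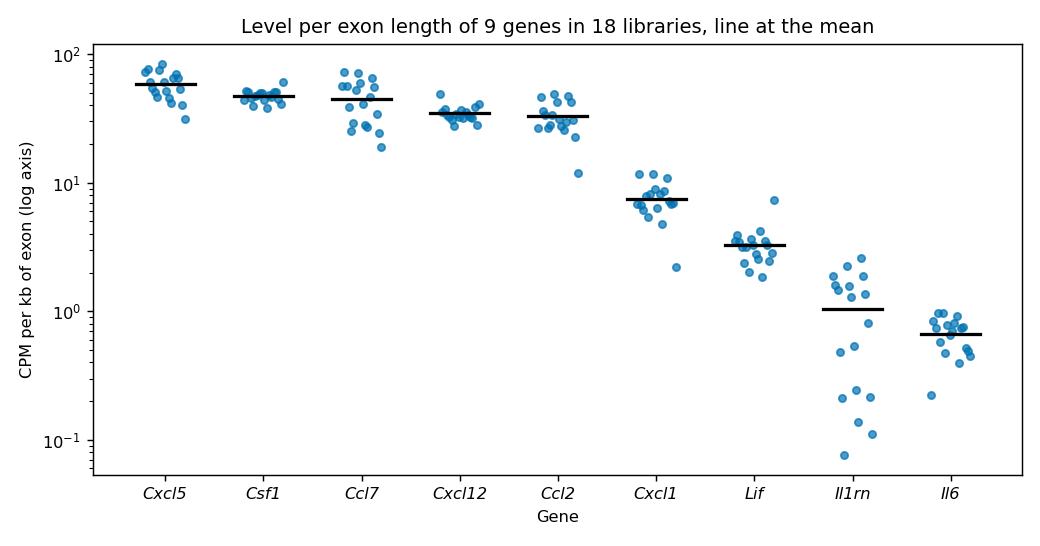
Level of 9 genes in CPM per kb of exon on a log axis, with 1 point per library (n = 18) and a line at the mean; Cxcl2 is left out because it had 0 counts in 14 libraries. Cxcl5, Csf1, Ccl7, Cxcl12 and Ccl2 lie together at the top, and the points of Il1rn spread over more than those of any other gene shown.

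Cxcl1 and Cxcl2, next to each other and with the same κB run in the window, were thus far apart in level. Cxcl2 had 4 counts in all, 1 in each of 4 libraries, and 0 in the other 14, which allows up to 0.150 to 0.808 CPM in those libraries for counting error alone. The mean difference from control was -0.00466 CPM at 10 µM and -0.00703 CPM at 30 µM, and in the exact two-sided permutation test of 6 against 6 libraries both had p = 1, as did the third such test, 30 µM against 10 µM. At this depth no difference in Cxcl2 was detectable.

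No member passed the test for a difference between uracil doses. Unless stated, the replicate number was not in the model, so SEs and p-values include the spread between numbers. In the edgeR quasi-likelihood test with Benjamini-Hochberg adjustment over all genes, 0 of the 9 tested members passed an adjusted p of 0.05 at 10 µM against control, where 0.00% of 13865 genes passed. The same held for 30 µM against control (0 of 9 members, 0.00% of genes), 30 µM against 10 µM (0 of 9, 0.00%), the test among all 3 doses (0 of 9, 0.00%) and the slope on dose (0 of 9, 0.00%). Without the 3 libraries the count was again 0 of 9 in each of these tests, with 0.00% of 13888 genes. At an unadjusted p under 0.05, 0 of 9 members passed at 10 µM, at 30 µM and between the doses with all libraries, and 1 (Il6, at 30 µM) with 15. The replicate number was then added to the model as a block. At 30 µM 3 of 9 members (Ccl7, Cxcl5 and Il1rn) passed that unadjusted limit with the block, each at an edgeR adjusted p of 0.656. Between the doses 1 of 9 did, Ccl7. Of all 13865 genes, 937 passed it with the block at 30 µM and 588 between the doses. With the block and 15 libraries, Ccl7 passed it at 30 µM (edgeR unadjusted p 0.0343), and Ccl7 (0.00132) and Il1rn (0.0498) between the doses. Their adjusted p were 0.896, 0.877 and 0.877. In that fit 604 of 13888 genes passed the unadjusted limit at 30 µM and 672 between the doses. Without the block 96 genes passed it at 10 µM, 595 at 30 µM and 323 between the doses. With 15 libraries 602 of 13888 genes passed it at 30 µM. DESeq2 and limma voom called 0 genes as well at the adjusted threshold. Across the 9 members the log2 fold changes had a median of 0.00052 (10 µM) and -0.089 (30 µM), beside 0.0059 and 0.012 for all genes tested.

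**Figure D2:**
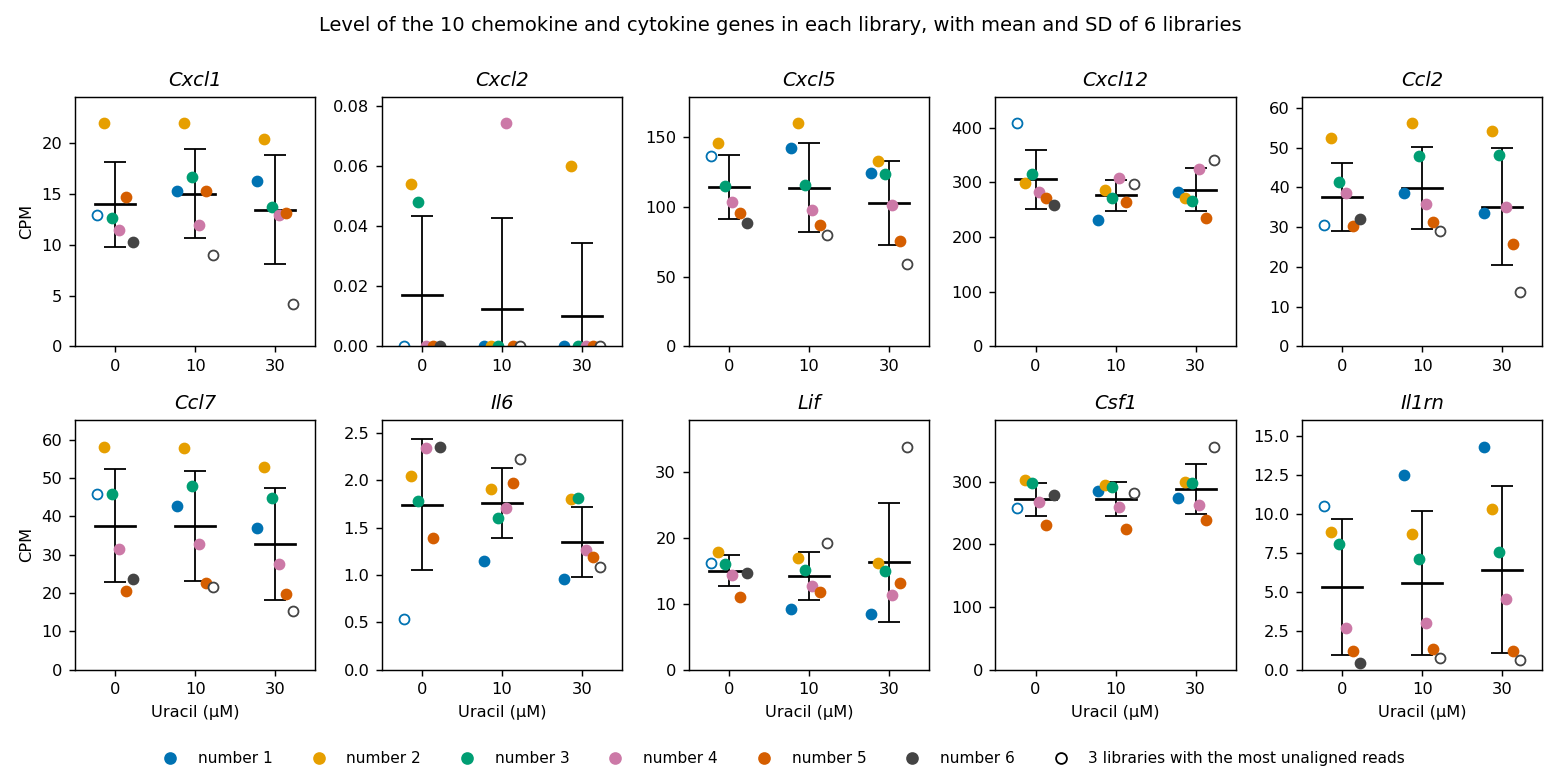
CPM of each gene by uracil dose (µM), with 1 point per library coloured by its number, open for the 3 libraries that stood apart, with mean and SD of 6 libraries. The 3 doses overlap in all 10 genes, and libraries of one number keep a similar place at each dose, as in Il1rn and Ccl7.

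Among the attractants of neutrophils, Cxcl5 ran from 88.3 CPM (lowest) through 110 (median) to 146 (highest) in control, from 79.7 through 107 to 160 at 10 µM and from 59.1 through 113 to 133 at 30 µM. The doses overlapped almost wholly. Against control it had a log2 fold change of -0.0022 ± 0.21 (SE) with 10 µM and of -0.14 ± 0.21 with 30 µM, at adjusted p of 1.00 and 0.969 in edgeR. Within a number, Cxcl5 was higher at 30 µM than in control in 1 of 6 numbers. With the replicate number as a block the 30 µM value was -0.18 ± 0.075 (95% interval -0.34 to -0.015, edgeR adjusted p 0.656). With 15 libraries and the block it was -0.11 ± 0.062 (-0.24 to 0.022, adjusted p 0.896). Cxcl1 ran from 10.3 through 12.8 to 21.9 CPM in control, from 8.97 through 15.3 to 21.9 at 10 µM and from 4.18 through 13.4 to 20.4 at 30 µM. The lowest value was that of 30 µM number 6, and without the 3 libraries the 30 µM range was 12.96 to 20.4 CPM. The log2 fold change of Cxcl1 at 30 µM was -0.042 ± 0.27 (95% interval -0.61 to 0.53), and 0.093 ± 0.20 with 15 libraries.

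The monocyte attractants gave the same picture. Ccl2 ran from 30.3 through 35.3 to 52.4 CPM in control, from 29.1 through 37.2 to 56.1 at 10 µM and from 13.6 through 34.4 to 54.2 at 30 µM. Ccl7 ran from 20.5 through 38.7 to 58.2 CPM in control, from 21.7 through 37.8 to 57.8 at 10 µM and from 15.3 through 32.4 to 52.9 at 30 µM. Control and treated libraries overlapped over nearly their whole range in both genes. At 30 µM the log2 fold change was -0.094 ± 0.25 for Ccl2 and -0.18 ± 0.33 for Ccl7 (edgeR adjusted p 0.997 and 0.984), and with 15 libraries 0.0040 ± 0.22 and 0.00033 ± 0.35. Library by library within a number, however, Ccl7 was lower at 30 µM than in control in 6 of 6 numbers and lower than at 10 µM in 6 of 6 (4 of 4 and 5 of 5 without the 3 libraries). With the replicate number as a block its log2 fold change at 30 µM was -0.21 ± 0.068 (95% interval -0.35 to -0.063, edgeR adjusted p 0.656), and -0.12 ± 0.051 (-0.22 to -0.0095, adjusted p 0.896) with 15 libraries, neither past the threshold.

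Cxcl12, the stromal chemokine, was among the steadiest. It ran from 258 through 291 to 408 CPM in control, where the highest value was that of number 1, from 231 through 278 to 309 at 10 µM and from 235 through 277 to 342 at 30 µM. Without the 3 libraries the highest control value was 315 CPM. With 10 µM the log2 fold change of Cxcl12 was -0.14 ± 0.11, within a 95% interval of -0.37 to 0.085. With 30 µM it was -0.089 ± 0.11 (-0.32 to 0.14). In the 15 libraries these values were -0.072 ± 0.083 and -0.055 ± 0.083. Csf1 was as tight, with 231 to 302 CPM in control, 224 to 294 at 10 µM and 239 to 356 at 30 µM, and medians of 273, 283 and 286. The value of 356 CPM was that of 30 µM number 6. The interval for Csf1 at 30 µM was -0.11 to 0.27 around 0.081, and in the 15 libraries the value was -0.0098 ± 0.084.

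Il6, the classical cytokine of this response, was low and not higher with uracil in any setting run at 30 µM. It had 2 to 38 counts per library, which limits its precision. Levels ran from 0.539 through 1.92 to 2.36 CPM in control, from 1.15 through 1.81 to 2.22 at 10 µM and from 0.956 through 1.23 to 1.82 at 30 µM. The lowest control value rested on 2 counts in number 1, one of the libraries that stood apart, and the doses overlapped. With 10 µM the log2 fold change was -0.079 ± 0.23, and with 30 µM -0.43 ± 0.24 (95% interval -0.93 to 0.074, edgeR unadjusted p 0.0902, adjusted p 0.931). With 15 libraries the 30 µM value was -0.49 ± 0.21 (-0.94 to -0.040, edgeR unadjusted p 0.0347), with an adjusted p of 0.944.

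Lif, of the same cytokine family, ran from 10.99 through 15.4 to 17.9 CPM in control, from 9.23 through 14 to 19.3 at 10 µM and from 8.49 through 14.1 to 33.9 at 30 µM. The value of 33.9 was that of 30 µM number 6 and lay above the other 17 libraries. At 30 µM the log2 fold change was 0.088 ± 0.26 with that library and -0.22 ± 0.18 in the 15 libraries, in neither case past the threshold. Il1rn, which encodes the antagonist, ran from 0.421 through 5.36 to 10.5 CPM in control, from 0.765 through 5.04 to 12.5 at 10 µM and from 0.619 through 6.04 to 14.3 at 30 µM. Its spread within a dose, relative to its level, was the widest among the 9 tested members, and the interval of 0.40 ± 0.76 at 30 µM reached from -1.21 to 2.01. Without the 3 libraries the value was 0.76 ± 0.75, and with the replicate number as a block it was 0.27 ± 0.12 (0.011 to 0.53, edgeR adjusted p 0.656).

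**Figure D3:**
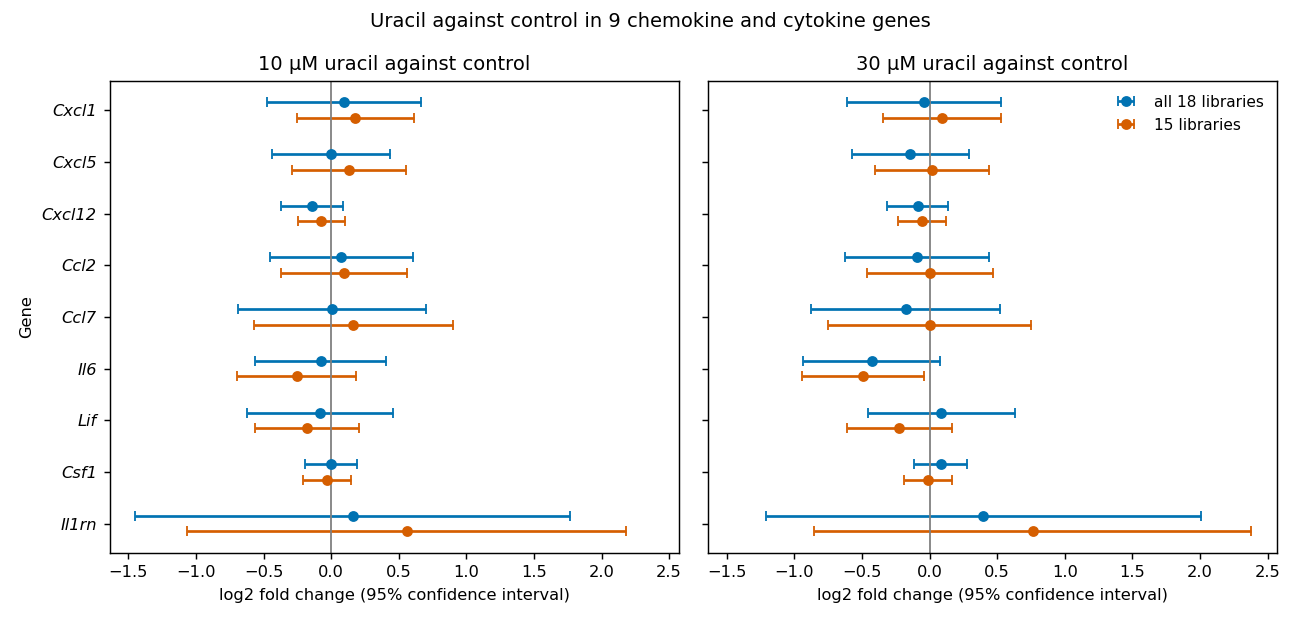
log2 fold change of 9 genes at 10 µM and 30 µM uracil against control with its 95% confidence interval, from all 18 libraries and from 15. The intervals include 0 in every gene at 10 µM and, at 30 µM, in every gene but Il6 with 15 libraries (-0.94 to -0.040); that of Il1rn is the widest.

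The genes around the members did not pass either. In no list did a gene pass the edgeR test in any dose comparison (0 of 9 other chemokines, 0 of 14 other cytokines, 0 of 7 receptors, 0 of 24 NF-κB and C/EBP regulators, 0 of 16 inflammatory response genes, 0 of 15 immediate early genes and 0 of 14 genes of pattern and IL-1 receptor signalling, each with 0.00% of all genes). Ptgs2, which makes prostaglandins, had a log2 fold change of -0.14 ± 0.35 at 30 µM, and Vcam1, an adhesion molecule, one of -0.057 ± 0.10. Nfkb1, a subunit of NF-κB, was at 0.079 ± 0.055 and Stat3, which acts below gp130, at 0.098 ± 0.054. The median at 30 µM was 0.076 over the 24 regulators and -0.048 over the 16 inflammatory response genes, beside 0.012 for all genes.

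RNA of IL-1 and TNF, named above as inducers of such a response, was scarcely present, while some other cytokines were. Of 37 other cytokine genes 25 averaged under 1 CPM, 9 of them with 0 counts in all 18 libraries. Named after their values were seen, Tnf had 4 counts, Il1a 3 and Il1b 2 over all libraries, and Ifnb1 0. The most abundant of this list were Mif (359 CPM), Kitl (22.4 CPM), the ligand of the receptor KIT, and Clcf1 (16.3 CPM), another ligand of the gp130 family. Of the 29 other chemokine genes 20 averaged under 1 CPM, and the highest were Cx3cl1 (46.4 CPM), Cxcl14 (30.3 CPM) and Ppbp (10.7 CPM).

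Receptors for some of these signals were well represented in the same libraries. Il6st averaged 648 CPM, Lifr, the LIF receptor, 48.5 CPM and Il1r1, the IL-1 receptor that the product of Il1rn blocks, 57.5 CPM. Receptors of the chemokines were at or near 0 (named after their values were seen, Ccr2 had 6 counts in all, Cxcr2 17, Cxcr4 5 and Cxcr1 0), except Ackr3, a scavenger of CXCL12, at 3.63 CPM.

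The replicate number gave another outcome. In an additive model with dose, 6 of the 9 members differed among the 6 numbers in the edgeR F test, where 12.6% of all genes did. They were Il1rn (adjusted p 9.4e-09), Ccl7 (1.4e-07), Cxcl5 (6.9e-05), Cxcl1 (0.0026), Ccl2 (0.0054) and Csf1 (0.021), and the others were Lif (0.075), Il6 (0.20) and Cxcl12 (0.74). Without the 3 libraries 7 of 9 passed, Lif among them with an adjusted p of 5.1e-05, where 20.8% of genes did. The call of Csf1 was lost (adjusted p 0.051 to 0.11) without control number 2, control number 5, 10 µM number 2, 10 µM number 5 or 30 µM number 5, and that of Lif was gained without control number 1 (0.013) or control number 6 (0.0040).

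Il1rn varied most. In control, 10 µM and 30 µM the libraries of number 1 held 10.5, 12.5 and 14.3 CPM, those of number 2 held 8.85, 8.68 and 10.3 CPM, and those of number 3 held 8.06, 7.10 and 7.56 CPM. Number 4 held 2.66, 2.97 and 4.51 CPM, number 5 held 1.17, 1.36 and 1.20 CPM, and number 6, on 4 to 11 counts, held 0.421, 0.765 and 0.619 CPM. The values of numbers 1, 2 and 3 lay above all of those of numbers 4, 5 and 6 at every dose. The mean of the highest number was 20.7 times that of the lowest, and 31.8 times without the 3 libraries, where number 6 is 1 library.

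Ccl7 shared that order in part. At the same 3 doses number 1 held 45.8, 42.8 and 37.1 CPM, number 2 held 58.2, 57.8 and 52.9 CPM, and number 3 held 45.8, 47.9 and 44.7 CPM. Number 4 held 31.6, 32.8 and 27.7 CPM, number 5 held 20.5, 22.7 and 19.7 CPM, and number 6 held 23.6, 21.7 and 15.3 CPM. Numbers 1, 2 and 3 were again above the others, but here number 2 was highest, 2.79 times the lowest number on average.

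Number 2 also held the highest mean of Cxcl5 (147 ± 13.4 CPM, SD, n = 3), Ccl2 (54.2 ± 1.86 CPM) and Cxcl1 (21.4 ± 0.862 CPM). The lowest means of these 3 genes were in number 6, which holds 2 of the libraries that stood apart, at 75.7 ± 14.98, 24.96 ± 9.94 and 7.80 ± 3.21 CPM. In its 1 remaining library they were 88.3, 32.1 and 10.3 CPM. Without the 3 libraries the lowest means of Cxcl5 (86.15 CPM) and Ccl2 (29.12 CPM) were those of number 5, and that of Cxcl1 stayed in number 6. Csf1 differed little in size, with number means from 231 ± 7.47 (number 5) to 305 ± 44.0 CPM (number 6), a ratio of 1.32. Without the 3 libraries the highest mean was that of number 2 (299 CPM), at a ratio of 1.29. In Cxcl12, where no difference was called, the number means lay between 257 and 307 CPM.

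**Figure D4:**
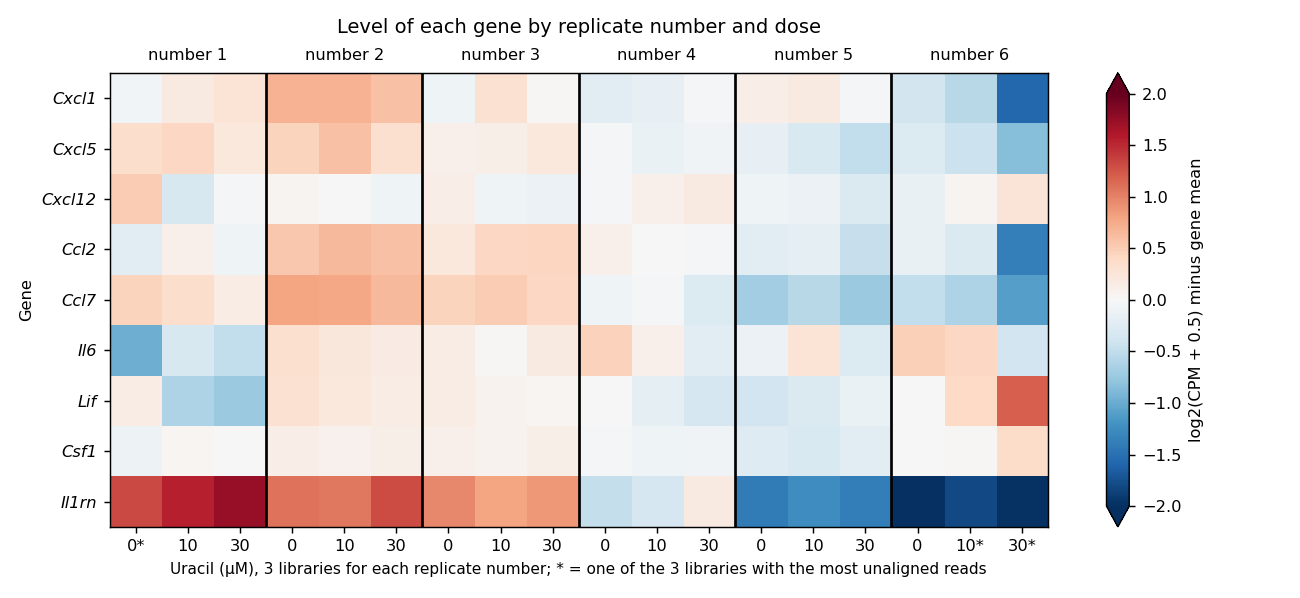
log2(CPM + 0.5) of 9 genes minus the mean of that gene, in 18 libraries set out by replicate number and, within it, by uracil dose (µM), red above and blue below the mean. Il1rn is red in numbers 1, 2 and 3 and blue in numbers 5 and 6 at every dose, and Cxcl1, Ccl2 and Ccl7 are reddest in number 2.

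Across the 15 libraries, Ccl2 and Ccl7 followed each other (Pearson r of log2 CPM 0.938), as did Cxcl5 and Ccl7 (0.919) and Cxcl5 and Il1rn (0.868), while Il6 and Cxcl5 did not (0.0082). These points share their replicate number and library scaling, and the values are descriptions. The mean of each number was then taken away, over the 14 libraries whose number had another. After this r was 0.547 for Ccl2 and Ccl7, 0.392 for Cxcl5 and Ccl7, -0.266 for Cxcl5 and Il1rn and 0.346 for Il6 and Cxcl5. With the other members, r of Il6 ran from -0.538 (Il1rn) to 0.707 (Ccl7) after this step. Outside the list, the gene most like Il1rn was Arsi (r = 0.995), then Ccn5 (0.981). Ccl7 was most like Spp1, which encodes osteopontin (0.975), and Edil3 (0.972), and Ccl2 most like F3, tissue factor (0.962), and Ereg, an EGF-family ligand (0.951). Lif was closest to Nfkbiz, a regulator of NF-κB (0.926), and Ier3 (0.909). For Cxcl5 they were Sdc2 (0.972) and Man1a2 (0.957), for Csf1 Sorcs2 (0.977) and Thbs1 (0.975), for Il6 Ahsa2 (0.899) and Mier3 (0.859), for Cxcl12 Tpp1 (0.867) and Synpo (0.842) and for Cxcl1 Zdhhc5 (0.854) and Fam3a (0.853).

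Among the other chemokines 7 of 9 tested differed by number, where 12.6% of all genes did. That share, or 20.8% without the 3 libraries, is the background for each list below. Means are over all 18 libraries, so those of number 6 include the libraries of it that stood apart. Ppbp and Cxcl15, CXC genes of chromosome 5, had their highest means in number 1 (17.96 and 11.4 CPM) and their lowest in number 6 (4.14 and 1.72 CPM), with edgeR adjusted p of 7.7e-08 and 9.6e-07. Ccl20 was highest in number 2, at 4.64 CPM, and lowest in number 5, at 1.75 CPM (adjusted p 0.00011). Among other cytokines 2 of 14 differed, a share near that 12.6%, namely Tnfsf11 (8.36 to 13.9 CPM, adjusted p 0.0019) and Il33 (4.03 to 6.55 CPM, 0.014). Of the receptors 4 of 7 did, Il1rap, Il1r1, Ackr3 and Il6st, and the means of Il1r1 lay between 46.2 CPM in number 6 and 70.6 CPM in number 1.

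Several genes of the acute response were highest in number 2. Of 16 inflammatory response genes 11 differed by number, with Ptgs2 at 380 CPM in number 2, 290 CPM in number 3 and 121 CPM in number 5 (edgeR adjusted p 1.7e-07). C3, a complement component, ran the other way, with 50.9 CPM in number 5 and 16.98 CPM in number 3 (2.5e-06). Of the 15 immediate early genes, transcription factors that serum and stress switch on within minutes, 9 differed, and 14 without the 3 libraries. Egr2 reached 30.0 CPM in number 2, against 6.55 CPM in number 5. Fos reached 27.4 CPM there, against 8.89 CPM in number 1. Nr4a1 was at 32.5 CPM in number 2, 8.52 CPM in number 1 and 36.7 CPM in number 6. The means of number 6, for Nr4a1 and for Tnfaip3 below, include 2 of the libraries that stood apart. Of 24 NF-κB and C/EBP regulators 4 differed, and 7 without the 3 libraries, shares not far from the 12.6% and 20.8% of all genes, with Tnfaip3, Nfkbiz and Zfp36 at the smallest p. Tnfaip3, a brake on NF-κB, was highest in number 6 (52.9 CPM), then number 2 (49.6 CPM), and lowest in number 5 (23.4 CPM). Of the 14 genes of pattern and IL-1 receptor signalling 1 differed, below the share of all genes, namely Tlr6 (2.57 to 5.33 CPM, 0.011).

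Markers of other cells moved with the number too. In bulk RNA fewer cells of a type and less RNA per cell cannot be told apart. The sum of 6 mesothelial markers (Msln, Upk1b, Krt19, Upk3b, Wt1 and Lrrn4), which passed the number test in 6 of 6 (12.6% of all genes did), was 118 to 168 CPM in number 1, 136 to 153 in number 2 and 149 to 163 in number 3. It was 289 to 310 CPM in number 4, 362 to 401 in number 5 and 275 to 305 in number 6, so that it was low where Il1rn and Ccl7 were high. The sum of 7 epithelial markers, mostly Krt14 and Krt8, with Epcam at 0 counts in 4 libraries, was 6.46 to 17.4 CPM in numbers 1, 2 and 3 and 23.2 to 43.8 CPM in the others. Of the epithelial markers 1 of 3 tested differed by number, and of the fibroblast markers 5 of 10 (7 without the 3 libraries).

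Leukocytes, a usual source of chemokines, left little trace. The 8 neutrophil markers summed to 0 to 0.918 CPM, with Elane and Retnlg at 0 counts throughout, and the 7 T and B cell markers to 0 to 0.310 CPM, with 5 of them at 0. The 10 macrophage markers summed to 2.82 to 8.07 CPM, mostly Cd14, Csf1r, Cd68 and Lyz2, and 0 of the 3 tested differed by number, while Ptprc, the pan-leukocyte marker, had 16 counts in all. Csf1r and Cxcr2 stand in both the receptor and the marker lists. The 6 endothelial markers summed to 7.34 to 12.03 CPM, almost all Kdr and Tek, of which 0 of 2 differed. Whether any of these cells had a part in the differences by number was not tested.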

How the data were processed

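Total RNA libraries were prepared by the authors with a stranded kit after depletion of ribosomal RNA. The authors deposited 1 table of raw read counts per Ensembl gene, with a column for each library and rows for the reads left unassigned. Their processing notes name FastQC, HISAT2, SAMtools 1.2 and HTSeq, and the human build GRCh38, although the identifiers are those of mouse genes. The build used for alignment is therefore uncertain, and the strand setting is not given in the sources used here. The study's methods say that 1 control and 1 30 µM sample were removed for human RNA, but the labels do not say which. All 18 libraries were therefore kept, and results were repeated without the 3 with the most unaligned reads. In those doses the highest unaligned shares were 54.2% in control number 1 and 37.9% in 30 µM number 6. Results above with all 18 libraries may thus hold samples that the authors removed. The fit without these 2 libraries is given among the alternatives.

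Symbols, positions and exon lengths were taken from GENCODE on GRCm39, which named 51731 of 55487 identifiers. Rows of unassigned reads were left out of library sizes. Their unaligned share is given in the text. CPM are counts per 1000000 gene counts, with library sizes adjusted by TMM scaling (trimmed mean of M-values). Counts were filtered with filterByExpr (minimum count 10), scaled by TMM and fitted with the robust quasi-likelihood model of edgeR 4.0.16 (R 4.3.3) over all 18 libraries with dose as the factor. The replicate number was tested by an F test beside dose. P-values were adjusted by Benjamini-Hochberg over all genes tested, at a threshold of 0.05. SEs were derived from the F statistic of each contrast, and intervals are 95% intervals. Cxcl2, below the filter, was compared by exact permutation of mean CPM. Alternatives used DESeq2 1.42.0, limma 3.58.1 (voom), other scalings and filters, a replicate block, and subsets of libraries. Scripts were tested on simulated data. Likeness was Pearson's r of log2(CPM + 0.5) over 15 libraries, among genes of at least 5 CPM.

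Counting error alone is covered by the limit of 3 counts for a count of 0. The members and lists were chosen with earlier results of these data known. Named were all 10 members, from each list the 3 genes of highest mean CPM and the 3 with the smallest p of those that passed the replicate number test, and the 2 genes most like each member. A gene that this rule names is not reported here.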

Additional observations from a re-analysis of the deposited data

Results flagged for a closer look

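Lif in 30 µM number 6, at 33.9 CPM from 219 counts, stood far from the other 5 libraries of its dose, which lay between 8.49 and 16.2 CPM. In that library 37.9% of reads were unaligned, and the part of this in the value was not tested. Cxcl2 in 10 µM number 4 (0.0743 CPM) and in 30 µM number 2 (0.0601 CPM) stood apart from 0 in the other libraries of their dose, each on 1 count. Each was picked out because its gap to the nearest library passed Dixon's limit for a group of 6. For Cxcl2, any 1 count beside 0 in the other libraries passes this limit, so the flag carries no information there. In all 30 groups of 6 libraries were examined, of which chance alone picks out about 1 in 20. That rate does not apply to the groups of Cxcl2.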

How the results depend on the processing

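No gene, member or other, passed the test in any dose comparison under any alternative run. Of 777 fold changes of members under alternatives 84 had the other sign, and 0 passed the threshold (smallest adjusted p 0.656). The 84 came from 19 of the 27 fold changes reported, so the direction of those 19 is not fixed. The rest kept their sign, among them at 30 µM against control Il6 (-0.531 to -0.305) and Il1rn (0.00227 to 1.096). None of 90 mean levels moved by 1 SD or more. With the 15 libraries this check could not fail. Each dose then lost 1 of its 6 libraries, and the SD was that of all 6. Mean Lif at 30 µM went from 16.3 CPM with all libraries to 12.8 CPM with 15. The causes of these changes were not tested.

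The values that turned sign are given as log2 fold changes. At 10 µM against control, Cxcl5 was 0.015 with library totals alone, 0.020 with no filter, 0.091 with limma voom, 0.053 without control number 1 and 30 µM number 6 (the fit without 2 libraries) and 0.13 without 10 µM number 6 as well (without 3). Csf1 was -0.0017 with DESeq2, -0.0014 with its size factors in edgeR, -0.0087 with voom, -0.013 without the 2 libraries and -0.028 without the 3. At 30 µM against control, voom and the fits without 2 and without 3 libraries gave 0.14, 0.098 and 0.093 for Cxcl1, 0.090, 0.023 and 0.019 for Cxcl5, 0.096, 0.0093 and 0.0040 for Ccl2, 0.13, 0.0082 and 0.00033 for Ccl7 and -0.21, -0.22 and -0.22 for Lif. Csf1 was -0.0060 and -0.0098 without 2 and 3 libraries. At 30 µM against 10 µM, Lif was -0.045 with voom, -0.15 without 2 and -0.042 without 3 libraries, and without 2 libraries Cxcl1 was 0.022 and Cxcl12 -0.0068.

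Leaving out 1 library at a time gave, at 10 µM against control, -0.044 to 0.28 for Cxcl1, -0.12 to 0.087 for Cxcl5, -0.048 to 0.20 for Ccl2, -0.16 to 0.18 for Ccl7, -0.18 to 0.026 for Il6, -0.19 to 0.018 for Lif, -0.036 to 0.054 for Csf1 and -0.26 to 0.44 for Il1rn. At 30 µM against control it gave -0.19 to 0.14 for Cxcl1, -0.14 to 0.0048 for Cxcl12, -0.25 to 0.057 for Ccl2, -0.36 to 0.00054 for Ccl7 and -0.23 to 0.22 for Lif. At 30 µM against 10 µM it gave -0.29 to 0.024 for Cxcl1, -0.0034 to 0.11 for Cxcl12, -0.15 to 0.31 for Lif and -0.16 to 0.66 for Il1rn. The difference in mean Cxcl2 ran from -0.017 to 0.00273, -0.017 to 0.000364 and -0.0124 to 0.01 CPM in these 3 comparisons.

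The number of genes that differed by replicate number was 2989 with DESeq2, 5959 with voom, 3287 without 2 and 2890 without 3 libraries, against 1745, and 1272 to 3498 with 1 library left out, the high values being those without control number 1 (3498) and control number 6 (3271). The adjusted p of Lif was 0.0058 with DESeq2, 0.038 with library totals, 3.2e-06 with voom and 0.00020 without 2 libraries, that of Il6 0.031 with voom, and that of Csf1 0.054 with library totals and 0.083 with no filter.

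Of 18 pairs of libraries that share a number, 16 correlated above 0.1 (lowest -0.101, median 0.404). The exceptions were both with control number 1, where 54.2% of reads were unaligned. Unless stated, the fits did not take the numbers as pairs, a choice that followed the study's ANOVA across the doses. Without the 3 libraries 13 of 13 pairs passed 0.1 (lowest 0.101, median 0.437). The median of pairs of unlike number was -0.0646 with all libraries and 0.0418 without the 3. SEs of fits without the block include the spread between numbers. At 30 µM against control these SEs were 0.33 for Ccl7, 0.76 for Il1rn and 0.11 for Cxcl12. With the block they were 0.068, 0.12 and 0.11. With the replicate block 0 genes were called in every dose test. At 30 µM against control it gave -0.21 for Ccl7 (edgeR unadjusted p 0.00805), -0.18 for Cxcl5 (0.0340) and 0.27 for Il1rn (0.0419), each at an adjusted p of 0.656, and at 30 µM against 10 µM -0.21 for Ccl7 (0.00619, adjusted p 0.82). With the block and without 3 libraries, Ccl7 was -0.17 ± 0.046 at 30 µM against 10 µM (edgeR unadjusted p 0.00132, adjusted p 0.877). In that fit Csf1 was -0.032 and Il1rn -0.038 at 10 µM. At 30 µM Cxcl1 was 0.019, Lif -0.11 and Csf1 -0.012, and Lif was -0.047 between the doses. Depth limits Cxcl2 and Il6 most, with 4 and 428 counts in all.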
